A study of Mus musculus with 4 samples.

Results

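The 9 genes described here encode proteins that bind, store or switch on messenger RNA in male germ cells: Dazl and Boll of the DAZ family, Ybx1, Ybx2 and Ybx3 of the Y-box family, the poly(A)-binding protein gene Pabpc1, the cytoplasmic polyadenylation element-binding protein genes Cpeb1 and Cpeb2, and the RNA helicase gene Ddx25. They were taken by name, not by their values, as 9 of the 18419 genes of a single-cell RNA table of mouse testis, and all 9 were present. The 4 libraries came from testes of ICR mice, an outbred stock: A0 was the control, given water as vehicle, A10 received alginate oligosaccharides (AOS) at 10 mg/kg body weight by gavage, B0 received busulfan alone, and BA10 received busulfan and then AOS at 10 mg/kg. Busulfan, an alkylating drug that kills dividing germ cells, was a single injection of 40 mg/kg at 3 weeks of age, and AOS or water began the next day. Testes were taken 5 weeks into the study, while the span of daily dosing is given as 5 weeks in one place and as 2 weeks in another. Each library pooled 6 mice before capture, so mice cannot be told apart and no test between groups was possible. The intervals below cover counting error only.

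Male germ cells make many transcripts long before the protein is needed, because transcription stops while the spermatid nucleus condenses. Y-box proteins coat such transcripts and hold them in untranslated particles, while DAZ, CPEB and poly(A)-binding proteins act on the tail of the transcript and on the start of translation, and DDX25 takes part in the export and storage of transcripts in haploid cells. DAZL is also known as one of the earliest proteins of germ cell identity, present from the embryonic germ cell through the spermatogonium to the spermatocyte.

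The libraries differed in more than treatment. A0, A10, B0 and BA10 held 8941, 9682, 4659 and 3778 cells with medians of 12685, 10948, 4214 and 17989 unique molecular identifiers (UMIs, each 1 captured transcript) per cell. The shallowest cells of these libraries had 7687, 6716, 2985 and 9013 UMIs, so results over all cells were repeated over deep cells, those with at least 9013 UMIs, of which B0 held 448. In B0, 77.8% of cells were somatic, against 0.157% in A0, 0.0516% in A10 and 3.15% in BA10, while among deep cells of B0 the somatic share was 7.37%. Altogether 374 barcodes were found in more than 1 library. Transcripts of Insl3, a hormone gene of Leydig cells, were present in 0% of thinned early spermatocytes of A0 and A10, in 31.2% of those of B0 and in 9.74% of those of BA10 (0.557, 0.633, 63.3 and 53.8% unthinned), where thinning means keeping 2500 UMIs of each cell. In late spermatocytes the thinned share was 0.0618% in A0 and 9.95% in BA10 (0.896 and 62.2% unthinned). Leydig transcripts were thus counted in germ cells of both busulfan libraries, and their part in the results below was not tested.

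Clusters made without the 9 genes were named from marker genes as spermatogonia-like (SPG-like), early and late spermatocyte-like (SPC-like), round and late spermatid-like (ST-like), and as macrophage-like, endothelial-like, Sertoli-like or Leydig-like. Of the 34 clusters 5 stayed unnamed. Unnamed cells numbered 486 in B0, at a median of 9314 UMIs, above the limit for deep cells. Deep cells of B0 were thus largely unnamed ones, while its SPG-like cells were at a median of 4069 UMIs. The SPG-like class, with Stra8 and Crabp1, genes of differentiating spermatogonia, among its leading genes, held 237 cells of B0, 12 of BA10, 1 of A10 and 0 of A0. Early SPC-like cells numbered 359, 316, 199 and 431 in the order A0, A10, B0 and BA10, and they and the round ST-like cells were the germ classes with at least 50 cells in every library. Those of A0 and A10 lay almost wholly in 2 clusters and those of B0 and BA10 in a different one. Late SPC-like cells numbered 3236, 3606, 11 and 2080, and late ST-like cells 1974, 2181, 0 and 16.

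The 9 genes marked different points of the germ line, as the map of levels by class shows. Levels are counts per 1000000 UMIs (CPM) over the summed cells of a class, and they are compared between classes, not between genes. Dazl and Cpeb1 were highest in SPG-like cells. Summed over libraries, Ybx1, Ybx2, Ybx3 and Pabpc1 were highest in early SPC-like cells, Boll and Ddx25 in late SPC-like cells, and Cpeb2 in round ST-like cells. By single cluster, however, Ybx1, Ybx2 and Ybx3 were highest in late SPC-like clusters, at 4480, 2338 and 2816 CPM. Pabpc1 was highest in an early SPC-like one, at 2810 CPM. The Y-box genes thus had no firm peak between early and late spermatocytes. For Pabpc1 and Boll the early and late SPC-like levels of A0 did not differ beyond counting error, at 2326 and 2327 CPM and at 61.2 and 66.3 CPM. Every gene was lower in late than in round ST-like cells except Cpeb1, which was near 0 in both.

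**Figure D1:**
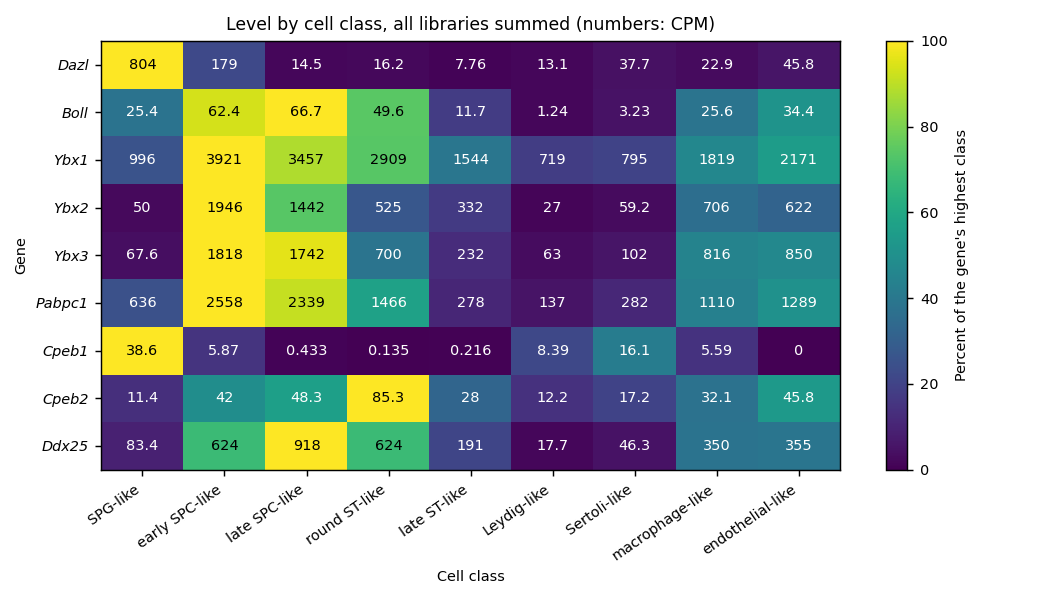
Level of each gene (rows) in each cell class (columns), all 4 libraries summed; the printed number is CPM and the colour is the percent of that gene's highest class. Dazl and Cpeb1 peak in the SPG-like column at 804 and 38.6 CPM, and Cpeb2 in the round ST-like column at 85.3 CPM.

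The upstream sequences of the genes were examined for the Y box, the inverted CCAAT element after which the Y-box proteins were named, because several of the 9 genes were high together in spermatocytes. Sequences came from RefSeq on build GRCm38.p6, 300 bases from 250 before to 50 after each start, on the strand of the gene, and 7 of the 9 genes had at least 1. The letters ATTGG, read on either strand, occurred in 37.4% of 32851 such windows and in 5 of the 9 windows that these 7 genes had, 1 in each of 5 genes. The windows of Ybx2, Ddx25 and Dazl are shown, the first of these being highest in spermatocytes, the second in late spermatocytes and the third in spermatogonia, with ATTGG or its complement CCAAT in capitals.
Ybx2, chr11:69935649-69935948, plus strand: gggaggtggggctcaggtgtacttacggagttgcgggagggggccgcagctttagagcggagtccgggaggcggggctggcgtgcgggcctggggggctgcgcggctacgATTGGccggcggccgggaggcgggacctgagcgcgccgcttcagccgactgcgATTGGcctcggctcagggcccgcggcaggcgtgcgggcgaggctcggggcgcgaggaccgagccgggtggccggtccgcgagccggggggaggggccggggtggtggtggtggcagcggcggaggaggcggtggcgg
Ddx25, chr9:35558421-35558720, minus strand: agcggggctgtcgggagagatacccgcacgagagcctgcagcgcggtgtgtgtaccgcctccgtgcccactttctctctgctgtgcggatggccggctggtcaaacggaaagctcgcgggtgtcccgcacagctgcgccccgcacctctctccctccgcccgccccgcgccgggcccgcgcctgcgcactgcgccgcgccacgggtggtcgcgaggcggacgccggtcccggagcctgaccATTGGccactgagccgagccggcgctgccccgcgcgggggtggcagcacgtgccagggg
Dazl, chr17:50293571-50293870, minus strand: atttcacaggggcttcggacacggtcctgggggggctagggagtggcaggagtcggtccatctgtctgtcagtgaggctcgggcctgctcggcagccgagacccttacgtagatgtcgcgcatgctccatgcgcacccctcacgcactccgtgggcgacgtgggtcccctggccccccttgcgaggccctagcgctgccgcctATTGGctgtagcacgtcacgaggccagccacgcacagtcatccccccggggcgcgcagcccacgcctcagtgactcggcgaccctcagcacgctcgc
The Ybx2 window held 2 copies of ATTGG, and the Ddx25 and Dazl windows held 1 each. The Ybx1 window held 3 on the opposite strand and 1 of the Boll windows held 1. The second Ybx2 window, the other Boll window and those of Ybx3 and Cpeb1 held 0. These matches describe the letters only.

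Dazl, at chromosome 17, 50279395 to 50293636 on the minus strand (mm10), encodes an RNA-binding protein that promotes translation of germ cell transcripts. Its level was higher in SPG-like and early SPC-like cells than in later classes, with 804 CPM in SPG-like cells and 179 CPM in early SPC-like, 14.5 CPM in late SPC-like, 16.2 CPM in round ST-like and 7.76 CPM in late ST-like cells. SPG-like cells were nearly all of B0, and within B0 the step from SPG-like to early SPC-like cells was smaller, from 779 to 518 CPM. The values of the last 3 classes were no higher than in Sertoli-like cells, at 37.7 CPM, and close to Leydig-like cells, at 13.1 CPM. With each cell thinned to 2500 UMIs, 78.9% of SPG-like cells of B0 held a Dazl transcript (92.0% unthinned, median 4069 UMIs), against 2.58% of Leydig-like cells of that library (4.12% unthinned, median 4045 UMIs).

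Over all cells the library level of Dazl was 22.5 CPM in A0, 21.2 CPM in A10, 80.0 CPM in B0 and 28.0 CPM in BA10. By CPM B0 was the high library, with a log2 ratio over A0 of 1.79 and a 3.45-fold higher level (1 CPM added to both). Mean Dazl UMIs per cell were instead highest in BA10, at 0.677, with B0 at 0.435, A0 at 0.379 and A10 at 0.315. The share of cells holding a Dazl UMI was lowest in B0, at 15.3%, but highest there after thinning, at 10.9%. By staining for the protein, the paper reports that B0 had the smallest percentage of DAZL-positive cells. Among deep cells the 4 levels were 21.7, 20.2, 28.3 and 28.0 CPM, and B0 no longer stood apart from BA10. The deep cells of B0 held 194 of its 2026 Dazl UMIs. They included 44 of its 199 early SPC-like cells, and its SPG-like cells had a median of only 4069 UMIs. Of the Dazl UMIs of B0, 38.6% came from SPG-like cells, which were 5.09% of its cells, and 38.5% from early SPC-like cells, which were 4.27%. In A0, which held 0 SPG-like cells, early SPC-like cells gave 31.6% and the unnamed Stra8 cluster described below gave 11.2%.

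Boll, at chromosome 1, 55248658 to 55363469 on the minus strand, encodes the oldest member of the DAZ family, which is needed for spermatid development. Its highest levels were in later classes than those of Dazl. Its level was 25.4 CPM in SPG-like cells, 62.4 CPM in early SPC-like, 66.7 CPM in late SPC-like, 49.6 CPM in round ST-like and 11.7 CPM in late ST-like cells, with 1.24 CPM in Leydig-like cells. Over all cells it was 49.1 CPM in A0, 52.1 CPM in A10, 27.9 CPM in B0 and 61.1 CPM in BA10, and over deep cells 49.8, 53.6, 73.2 and 61.1 CPM. B0 was therefore the lowest library over all cells and the highest over deep cells.

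The make-up of the DAZ family was followed as a share of its UMIs, which depends on both genes. From early to late SPC-like cells Dazl went from 179 to 14.5 CPM, while Boll went from 62.4 to 66.7 CPM. Boll made up 3.07% of DAZ family UMIs in SPG-like cells, 25.9% in early SPC-like, 82.2% in late SPC-like, 75.3% in round ST-like and 60.2% in late ST-like cells, with an exact binomial 95% interval of 2.06 to 4.38% in SPG-like and 81.6 to 82.8% in late SPC-like cells. Within late SPC-like cells the share was alike in the 3 libraries that held at least 50 of them, at 82.3% in A0, 82.7% in A10 and 81.4% in BA10. Within early SPC-like cells it was not: the share was 13.9% in B0, 23.4% in A0, 27.3% in A10 and 35.8% in BA10. The interval of B0 (11.7 to 16.3%) lay below and that of BA10 (33.2 to 38.5%) above those of A0 (21.2 to 25.7%) and A10. The Boll level in CPM was highest in B0 at 83.5 CPM and lowest in BA10 at 57.1 CPM in these cells. Its counting intervals overlapped between B0 and A10 and between BA10 and A0. The mean Boll UMIs per cell had the order of the share, at 0.633 in B0, 0.911 in A0, 0.937 in A10 and 1.08 in BA10.

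**Figure D2:**
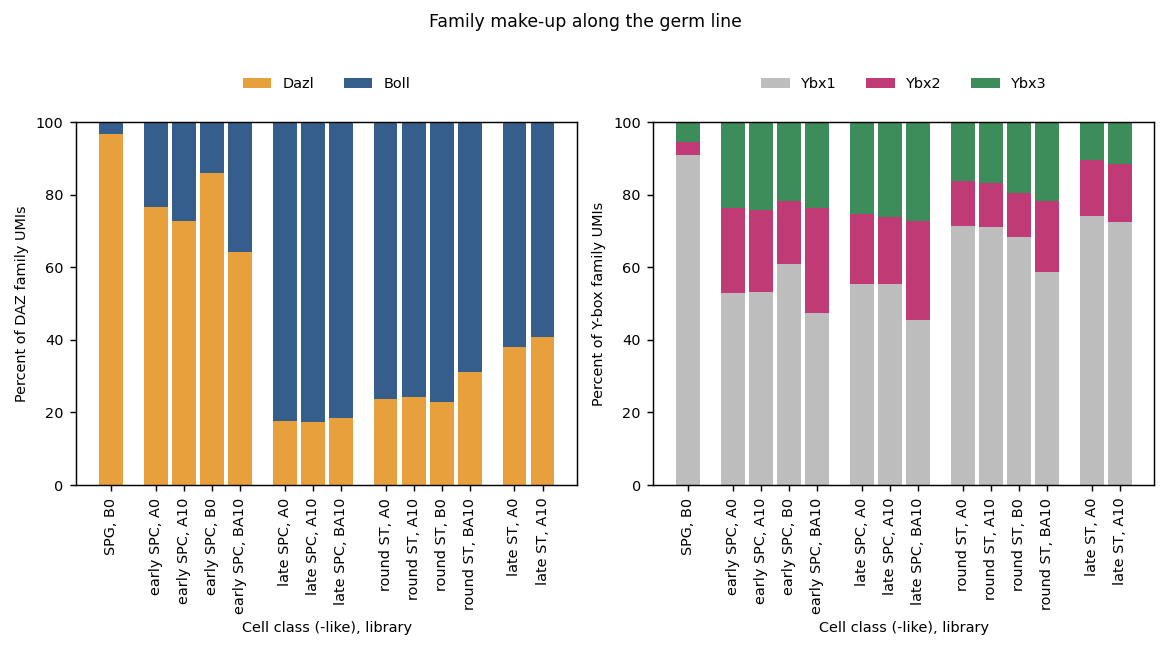
Percent of DAZ family UMIs (left) and of Y-box family UMIs (right) given by each gene, 1 bar per germ cell class and library with at least 50 cells. The Boll part grows from 3.33% in SPG-like cells of B0 to over 80% in late SPC-like cells, and the Ybx2 part is larger in BA10 than in A0 in early SPC-like, late SPC-like and round ST-like cells.

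Ybx1, at chromosome 4, 119277981 to 119294604 on the minus strand, encodes the Y-box protein of most tissues. It has 1 named pseudogene in the annotation, whose reads the counting may have split. It was present in somatic-like cells too, at 719 CPM in Leydig-like and 795 CPM in Sertoli-like cells, against 3921 CPM in early SPC-like cells. SPG-like cells held 996 CPM, late SPC-like cells 3457 CPM, round ST-like cells 2909 CPM and late ST-like cells 1544 CPM. The late ST-like clusters did not share 1 level, since they ranged from 180 CPM in the cluster led by Car2 and Spem1 to 2382 CPM in the cluster led by Dcdc2c and Hemgn.

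Ybx2, at chromosome 11, 69935796 to 69941605 on the plus strand, encodes the germ cell Y-box protein MSY2, known to coat and stabilise stored transcripts of spermatocytes and spermatids. It was low in SPG-like cells, at 50.03 CPM, against 1946 CPM in early SPC-like cells, and within B0 the values were 37.8 and 1014 CPM. The 12 SPG-like cells of BA10 were at 141 CPM. It was 1442 CPM in late SPC-like, 525 CPM in round ST-like and 332 CPM in late ST-like cells. Leydig-like cells held 27.0 CPM. After thinning, 4.54% of those of B0 held a transcript (6.80% unthinned), against 8.02% of SPG-like cells (14.8% unthinned) of the same library. The thinned intervals overlapped (3.81 to 5.36 and 4.9 to 12.2%), while the unthinned ones did not (5.92 to 7.78 and 10.5 to 19.9%). Whether the Ybx2 transcripts of SPG-like cells are background RNA was not tested.

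Ybx3, at chromosome 6, 131364855 to 131388476 on the minus strand, encodes MSY4, which binds the transcripts of protamines and other late proteins. It followed Ybx2, with 67.6 CPM in SPG-like, 1818 CPM in early SPC-like, 1742 CPM in late SPC-like, 700 CPM in round ST-like and 232 CPM in late ST-like cells. Leydig-like cells, at 63.0 CPM, did not differ from SPG-like cells beyond counting error. Among Y-box UMIs, Ybx1 gave 89.4% in SPG-like cells, 51.0% in early SPC-like, 52.0% in late SPC-like, 70.4% in round ST-like and 73.2% in late ST-like cells. The Ybx2 share was 4.49%, 25.3%, 21.7%, 12.7% and 15.8% in the same classes, so the family was most mixed in spermatocytes.

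Across libraries, Ybx1 stood at 3002 CPM in A0, 3031 CPM in A10, 1572 CPM in B0 and 2985 CPM in BA10 over all cells. Over deep cells it was 3047, 3116, 3066 and 2985 CPM, a narrow range in which B0 no longer stood apart. Ybx2 behaved otherwise. Its all-cell levels were 822, 832, 296 and 1702 CPM and its deep-cell levels 839, 891, 858 and 1702 CPM, so that BA10 stood apart from the other 3 libraries also among deep cells. For Ybx3 the all-cell levels were 1028, 1103, 493 and 1672 CPM and the deep-cell levels 1057, 1190, 1408 and 1672 CPM, with BA10 again highest.

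Pabpc1, at chromosome 15, 36595661 to 36609668 on the minus strand, encodes the main cytoplasmic poly(A)-binding protein, which links the tail of a transcript to its translation. Its level was 636 CPM in SPG-like cells, 2558 CPM in early SPC-like, 2339 CPM in late SPC-like, 1466 CPM in round ST-like and 278 CPM in late ST-like cells, and 137 CPM in Leydig-like cells. The late ST-like clusters ranged from 88.8 to 212 CPM but for the one led by Dcdc2c and Hemgn, at 593 CPM. By library, Pabpc1 was 1637 CPM in A0, 1549 CPM in A10, 795 CPM in B0 and 2398 CPM in BA10 over all cells, and 1666, 1603, 1900 and 2398 CPM over deep cells. B0 was lowest over all cells, and over deep cells it lay between the libraries without busulfan and BA10.

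Cpeb1, at chromosome 7, 81347026 to 81455465 on the minus strand, encodes a protein that controls tail length and acts early in meiosis. Few of its transcripts were counted, with 38.6 CPM in SPG-like cells, 5.87 CPM in early SPC-like cells and under 0.5 CPM in the late SPC-like and both ST-like classes. Within B0 the first 2 of these classes were at 41.8 and 17.9 CPM. Its UMIs were also counted in somatic-like cells, at 8.39 CPM in Leydig-like and 16.1 CPM in Sertoli-like cells. Whether these are background RNA was not tested. After thinning, 10.1% of SPG-like cells of B0 (14.8% unthinned) and 1.92% of Leydig-like cells (3.51% unthinned) held a transcript. Its all-cell levels were 0.404 CPM in A0, 0.404 CPM in A10, 8.37 CPM in B0 and 1.46 CPM in BA10, and of the B0 transcripts 49.5% came from Leydig-like cells, which held 49% of all UMIs of that library, and 19.8% from SPG-like cells, which held 3.97%. Over deep cells B0 and BA10 were both at 1.46 CPM, but the deep cells of B0 held only 10 of its 212 Cpeb1 UMIs. Because 1 CPM is large beside such levels, its log2 ratio of B0 over A0, 2.74 with 1 CPM added, was 4.37 with nothing added (interval 3.95 to 4.81).

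Cpeb2, at chromosome 5, 43233170 to 43289724 on the plus strand, encodes a relative of CPEB1 known from haploid germ cells. Its level was highest in round spermatids, with 11.4 CPM in SPG-like cells, 42.0 CPM in early SPC-like, 48.3 CPM in late SPC-like and 85.3 CPM in round ST-like cells, and was 28.0 CPM in late ST-like cells. The late ST-like clusters ranged from 4.05 to 16.6 CPM but for the one led by Dcdc2c, at 62.6 CPM, which scored nearly as high for round as for late ST-like markers. Early and late SPC-like cells did not differ beyond counting error in A0 (50.9 and 53.3 CPM) or A10 (49.6 and 49.4 CPM), while in BA10 they were at 30.2 and 42.0 CPM. The SPG-like level was no higher than that of Leydig-like cells, 12.2 CPM. By library it was 63.9 CPM in A0, 54.5 CPM in A10, 28.4 CPM in B0 and 47.4 CPM in BA10 over all cells, and 65.5, 56.9, 58.2 and 47.4 CPM over deep cells. BA10 was the lowest library among deep cells. Round ST-like cells held 91.9 CPM in A0, 76.4 CPM in A10, 86.8 CPM in B0 and 93.0 CPM in BA10, with the counting interval of A10 (74.0 to 79.0 CPM) below those of A0 (89.3 to 94.5 CPM) and BA10 (86.7 to 99.8 CPM).

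Ddx25, at chromosome 9, 35536647 to 35558528 on the minus strand, encodes a testis RNA helicase regulated by gonadotropin and found in the cytoplasmic RNA granules of spermatids. It was 83.4 CPM in SPG-like, 624 CPM in early SPC-like, 918 CPM in late SPC-like, 624 CPM in round ST-like and 191 CPM in late ST-like cells, and 17.7 CPM in Leydig-like cells. By library it was 657 CPM in A0, 667 CPM in A10, 236 CPM in B0 and 854.5 CPM in BA10 over all cells, and 666, 680, 653 and 854.5 CPM over deep cells. The 3 other libraries were close among deep cells and BA10 was higher. Inside late SPC-like cells Ddx25 was 918 CPM in A0 and 936 CPM in BA10. In the same order it was 598 and 688 CPM in early SPC-like cells and 618 and 650 CPM in round ST-like cells. In the unnamed Stra8 cluster described below it was 375 and 730.5 CPM. Late SPC-like cells were 36.2% of A0 and 55.1% of BA10, and the part of the mix of classes was not tested. The log2 ratio of BA10 over A0 in deep cells was 0.36 (0.35 to 0.37).

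**Figure D3:**
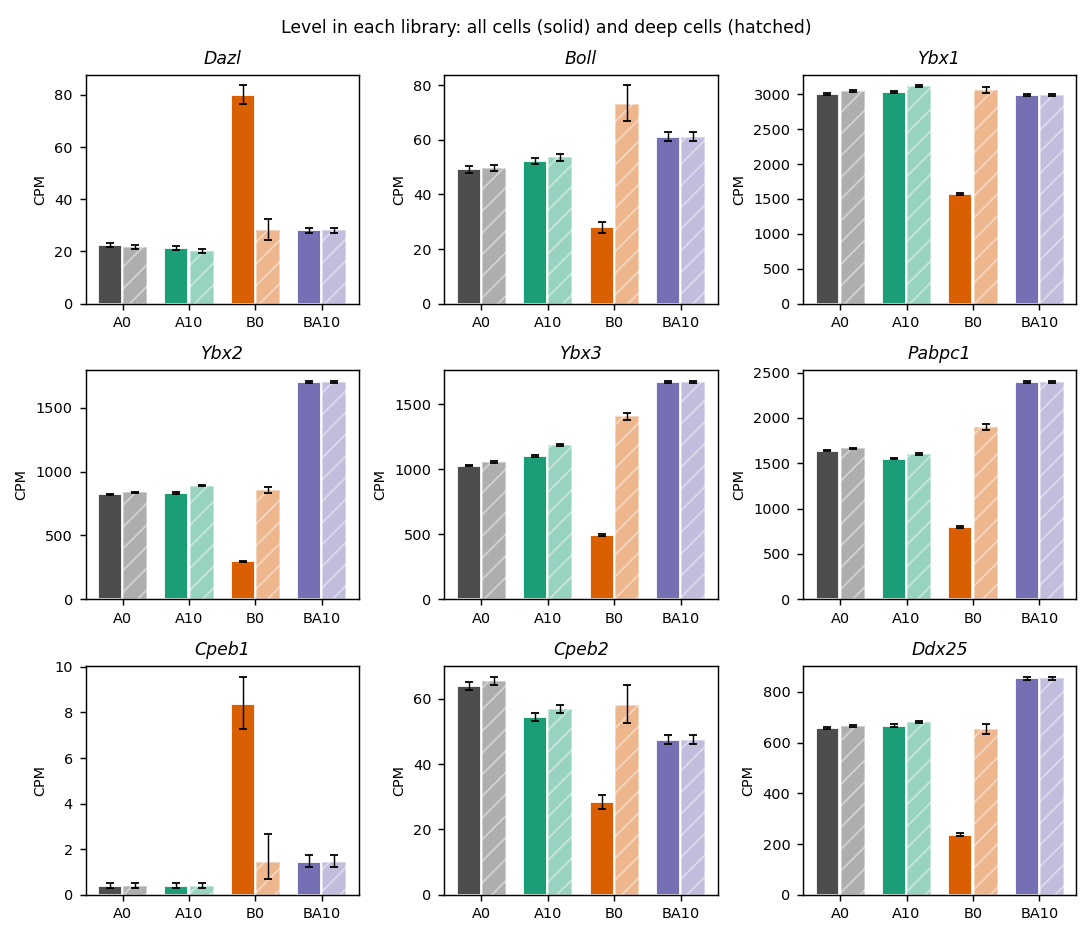
CPM of each gene in the 4 libraries, 1 panel per gene with its own linear axis from 0; solid bars are all cells, hatched bars are cells with at least 9013 UMIs, and error bars are exact Poisson 95% intervals. B0 departs from the other libraries in the solid bars of every gene, while in the hatched bars BA10 is the highest for Ybx2, Ybx3, Pabpc1 and Ddx25.

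Whether AOS alone changed these genes was asked of A10 against A0. None of the 9 genes was past 2-fold over all cells, where the same held for all but 0.104% of genes at 10 CPM or more in either library. Their log2 ratios lay between -0.22 (Cpeb2) and 0.10 (Ybx3), and for the 8 members past that filter, Cpeb1 being under it, the median was 0.02 against -0.03 for all genes. Counts were also 0 of 9 among deep cells (0.074% of genes), early SPC-like cells (0.457%), late SPC-like cells (0.0901%) and ST-like cells (0.117%). Cpeb2 was the lowest ratio over all cells and in ST-like cells, where it was -0.29 (-0.35 to -0.24) and lower than that of all but 3.05% of genes.

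Whether busulfan changed them was asked of B0 against A0. Over all cells 7 of the 9 were past 2-fold, where 65.5% of all genes were. Dazl and Cpeb1 were higher (42.8% of genes were), and Ybx2, Ybx3, Pabpc1, Cpeb2 and Ddx25 were lower (22.7% of genes were), with log2 ratios of -1.47, -1.06, -1.04, -1.14 and -1.47. Boll and Ybx1, at -0.79 and -0.93, stayed under 2-fold. Cpeb1, at 8.37 CPM in B0, was itself under the filter of 10 CPM behind these shares. The median over the 8 members past the filter was -1.05 against 0.51 for all genes. Fewer cells of a type and less RNA per cell cannot be told apart in such sums, and somatic cells were 77.8% of this library. Among deep cells the count was 0 of 9, where 27.8% of genes were past 2-fold, and the log2 ratios lay between -0.17 (Cpeb2) and 0.82 (Cpeb1, 1.89 with nothing added). Cpeb1 rested there on 10 UMIs of B0. The 448 deep cells of B0 were largely unnamed ones and held 44 of its 199 early SPC-like cells.

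Whether AOS after busulfan changed them was asked of BA10 against B0. Over all cells 7 of 9 were past 2-fold, where 58.2% of genes were. Boll, Ybx2, Ybx3, Pabpc1 and Ddx25 were higher (18.8% of genes were), by log2 ratios of 1.10, 2.52, 1.76, 1.59 and 1.85, and Dazl and Cpeb1 were lower (39.5% of genes were), by -1.48 and -1.93, although Cpeb1 was under the 10 CPM filter here too. The ratio of Ybx2 was higher than that of 99.9% of genes, and the members' median was 1.35 against -0.38 for all genes. Among deep cells 0 of 9 were past 2-fold, where 15.2% of genes were. Ybx2 came nearest at 0.99 (0.95 to 1.03), higher than 98.8% of genes, and the remaining 8 lay between -0.29 (Cpeb2) and 0.39 (Ddx25). B0 and BA10 differed in UMIs per cell and somatic share as well as in AOS, and with 1 library each these cannot be told apart.

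How far BA10 stood from the control was asked of BA10 against A0. Over all cells only Ybx2 was past 2-fold, at a log2 ratio of 1.05, where 35.4% of genes were past 2-fold (15.2% higher and 20.2% lower), and among deep cells again only Ybx2 was, at 1.02, where 34.8% of genes were (14.6% higher). Ybx3 at 0.66, Pabpc1 at 0.53, Ddx25 at 0.36, Dazl at 0.36 and Boll at 0.29 were higher among deep cells, Ybx1 was at -0.03 and Cpeb2 at -0.46. The median of all genes was itself 0.33 in that comparison, against 0.36 for the 8 members past the filter, so relative to it Dazl, Boll and Ddx25 were close to 0 and Ybx2, at 0.69, was under 2-fold (0.71 over all cells). With nothing added Cpeb1 was past 2-fold as well, at 1.89 (1.43 to 2.36). The mix of stages differed too. Late SPC-like cells were 36.2% of A0 and 55.1% of BA10, and late ST-like cells 22.1% and 0.424%.

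**Figure D4:**
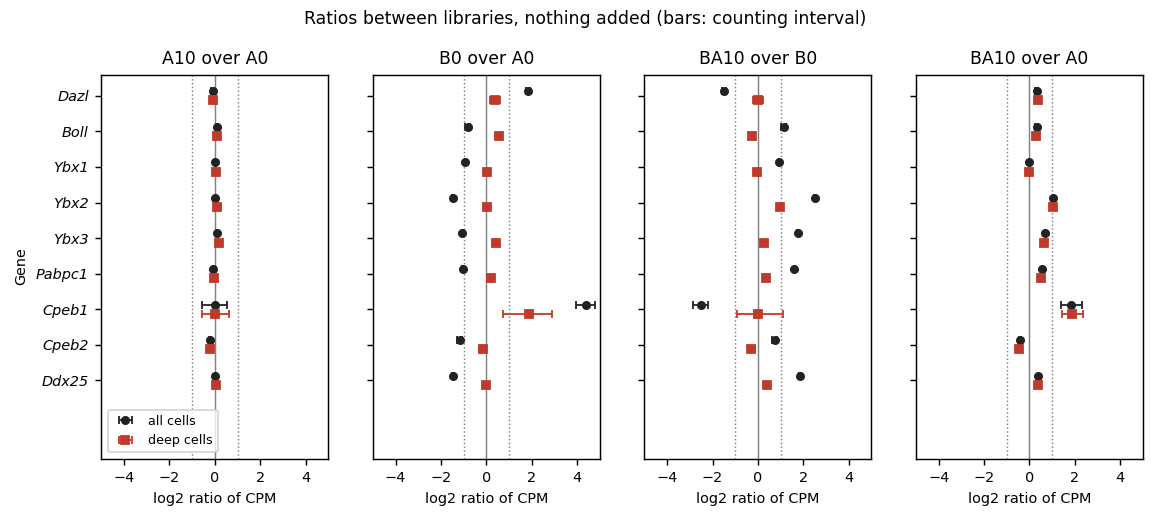
Log2 ratio of CPM between libraries with nothing added, for each gene (rows) and each of the 4 comparisons (panels), over all cells (black circles) and deep cells (red squares); bars are exact counting intervals and dotted lines mark 2-fold. Black circles lie past the dotted lines for most genes in the 2 comparisons with B0, and red squares there lie within them except that of Cpeb1 in B0 over A0.

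Early SPC-like cells could be compared in every library. All 199 of B0 and 424 of the 431 of BA10 lay in 1 cluster, which held 2 cells of A0 and 2 of A10. Cluster and library thus cannot be told apart against A0 or A10, and the mix of stages inside the class was not tested. Dazl was 201 CPM in A0, 177 CPM in A10, 518 CPM in B0 and 103 CPM in BA10, with counting intervals that did not overlap between B0 and any other library or between BA10 and any other library. Thinned to 2500 UMIs, 40.7%, 40.5%, 78.9% and 25.8% of cells held a Dazl transcript (89.7%, 83.9%, 93.0% and 79.1% unthinned, at medians of 12330, 11832, 5006 and 18120 UMIs). Cpeb1 too was highest in B0, at 5.43, 4.27, 17.9 and 4.80 CPM.

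The Y-box genes of the germ line and Ddx25 were lowest in B0 in those cells. Ybx2 was 1766 CPM in A0, 1760 CPM in A10, 1014 CPM in B0 and 2338 CPM in BA10. After thinning, 98.3%, 95.6%, 62.8% and 99.1% of cells held a Ybx2 transcript, and unthinned 100%, 99.7%, 74.9% and 100%, so B0 had the lowest share of cells with a Ybx2 UMI. Ybx3 was 1763, 1897, 1275 and 1912 CPM and was found in 94.2%, 95.6%, 54.8% and 97.0% of thinned cells. Ddx25 was 598, 614, 408 and 688 CPM and was found in 73.5%, 76.9%, 46.7% and 79.6%. Ybx1 (3960, 4152, 3566 and 3833 CPM) was also lowest in B0, while Pabpc1 (2326, 2317, 2305 and 2891 CPM) did not differ beyond counting error between A0, A10 and B0. Both were present in 100% of the thinned early SPC-like cells of both busulfan libraries. At means of 27 and 17.5 UMIs per cell of B0, such shares cannot show a difference in level. Boll, at 61.2, 66.4, 83.5 and 57.1 CPM, and Cpeb2, at 50.9, 49.6, 51.0 and 30.2 CPM, varied less than Dazl.

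Past 2-fold in early SPC-like cells were 2 of 9 genes in B0 over A0, Dazl at 1.36 and Cpeb1 at 1.56, where 30.9% of genes were (17% higher and 13.9% lower). In BA10 over B0 they were 3 of 9, Dazl at -2.32, Cpeb1 at -1.70 and Ybx2 at 1.21, where 28.6% of genes were (5.29% higher and 23.3% lower), and the ratio of Dazl was lower than that of all but 2.47% of genes. In BA10 over A0 there were 0 of 9, where 19.6% of genes were, and Dazl came nearest at -0.96 (-1.10 to -0.84). Cpeb1 rested on 29 UMIs of A0, 27 of B0 and 39 of BA10 in these cells. Only 44 of the B0 early SPC-like cells were deep, too few for a comparison at equal depth. The transcript levels of Prm1, a protamine gene of late spermatids, were 7182 CPM in A0, 7474 CPM in A10, 6.63 CPM in B0 and 176 CPM in BA10 in these same cells, and thus moved with the number of spermatids in the library. Its part in the members' ratios was not tested.

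**Figure D5:**
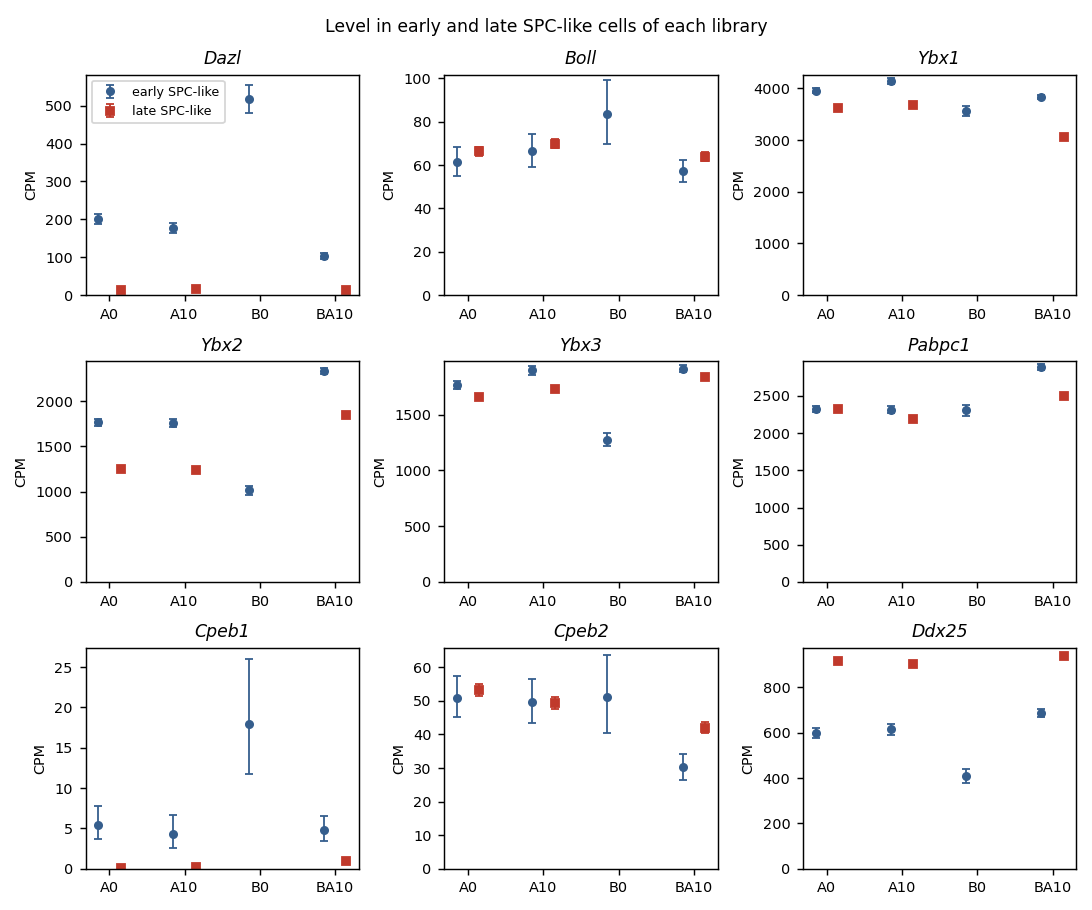
CPM of each gene in early SPC-like (blue circles) and late SPC-like (red squares) cells of each library with at least 50 such cells, linear axes from 0, with exact Poisson 95% intervals. In early SPC-like cells B0 is highest for Dazl at 518 CPM and for Cpeb1 at 17.9 CPM, and lowest for Ybx2 at 1014 CPM.

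In late SPC-like cells BA10 could be compared with A0, and 0 of 9 genes were past 2-fold, where 15.7% of genes were. Ybx2 was 1253 CPM in A0, 1242 CPM in A10 and 1848 CPM in BA10, a log2 ratio of 0.56 (0.55 to 0.57) over A0 and higher than that of 91.8% of genes. Ybx1 was 3614, 3671 and 3064 CPM, the only Y-box gene that was lower in BA10. Ddx25 (918, 903 and 936 CPM), Boll (66.3, 69.8 and 63.8 CPM) and Dazl (14.3, 14.6 and 14.6 CPM) differed little. The late SPC-like cells of BA10 lay in other clusters than those of A0, and at a median of 23596.5 against 12367.5 UMIs. Among those clusters Ybx2 ranged from 769 CPM in one led by Ssxb3 and Gm14459, of A0 and A10, to 2338 CPM in one led by Speer1 and Cd177, of BA10. Within the clusters of A0 and A10 alone it ranged up to 2231 CPM, in one led by Ccp110 and Elfn2. Cluster and library cannot be told apart for the cells of BA10.

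In ST-like cells 0 of 9 genes were past 2-fold in BA10 over A0, where 24.9% of genes were, and Dazl, at 0.91, and Ybx2, at 0.80, came nearest. The count was also 0 of 9 in B0 over A0 (30.6% of genes) and in BA10 over B0 (13.6% of genes). ST-like cells of A0 were 1974 late and 3062 round, and those of BA10 were 16 late and 426 round, so the mix of stages differed. Within round ST-like cells Ybx2 was 510 CPM in A0, 496 CPM in A10, 464 CPM in B0 and 799 CPM in BA10. BA10 was again high, and B0, with 101 cells, lay with the libraries without busulfan. The libraries filled different clusters, since 380 of the BA10 cells were in one with Ybx2 at 822 CPM and 96 of the B0 cells in one at 494 CPM, while the 5 clusters of A0 and A10 ranged from 390 to 642 CPM. Pabpc1 was 1507, 1355, 1391 and 1848 CPM and Ddx25 618, 629, 507 and 650 CPM in the same cells.

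An unnamed cluster led by Stra8, Prss50 and Rhox13 held 109, 103, 7 and 102 cells of A0, A10, B0 and BA10. Spermatogonial and spermatocyte genes were both among its leaders. Dazl was 241 CPM in A0, 267 CPM in A10 and 139 CPM in BA10 there, and the Boll share of DAZ family UMIs was 12.2%, 11.9% and 28.3%. These values lay between those of SPG-like and late SPC-like cells. Ybx2, at 714, 745 and 1412 CPM, and Ddx25, at 375, 491 and 730.5 CPM, were higher in BA10 than in A0 and A10 in that cluster too. In it 0 of 9 genes were past 2-fold in A10 over A0, where 4.73% of genes were, and 0 of 9 in BA10 over A0, where 46.3% of genes were, with Ybx2 (0.98), Pabpc1 (0.97) and Ddx25 (0.96) just under that size.

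The transcripts of 5 of the 9 genes in B0 came mostly from cells with no firm name. Unnamed cells outside the Stra8 cluster, chiefly a cluster led by Hba-a1, Hbb-b1 and Sertoli genes such as Cst9, were 10.3% of cells of B0, held 21.2% of its UMIs and gave 56.9% of its Boll UMIs, 64.1% of Ddx25, 54.2% of Ybx2, 55.7% of Ybx3 and 50.5% of Pabpc1. They gave less of the other 4 genes, with 39.8% of Ybx1, 38.1% of Cpeb2, 7.21% of Dazl and 2.83% of Cpeb1. That cluster had Boll at 72.1 CPM and Ddx25 at 822 CPM, levels otherwise seen in spermatocytes. It also scored far higher for late SPC-like markers than for those of any other class. The count of late SPC-like cells in B0 leaves these cells out. Germ transcripts were also counted in somatic-like cells. Macrophage-like cells of BA10 held Ybx2 at 1631 CPM and Ddx25 at 760 CPM, against 121 and 79.5 CPM in those of B0, but 54 of the 61 cells of BA10 lay in a cluster with Ybx2 at 1268 CPM and 353 of the 449 of B0 in one at 52.3 CPM. In macrophage-like cells of BA10 the Boll share of DAZ family UMIs, 80.5%, was close to the 81.4% of late SPC-like cells of that library. Whether such cells are mixed droplets or took up RNA was not tested.

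Other genes of the translation machinery were followed as a list of 65 measured genes, which included further CPEB, poly(A)-binding, cap-binding and deadenylation proteins. In A10 over A0 over all cells 0 of the 43 genes past the filter were past 2-fold, where 0.104% of all genes were. In B0 over A0 over all cells 23 of 55 were higher and 7 lower (42.8% and 22.7% of all genes), with median 0.73 against 0.51 for all genes. Among deep cells 3 of 49 were higher and 5 lower, where 27.8% of all genes were past 2-fold in either direction. The median was 0.27 against 0.25. Pabpc4, a poly(A)-binding protein of somatic cells, was 0.232 CPM in A0 and 26.4 CPM in B0, while Papolb, a testis cytoplasmic poly(A) polymerase, was 504 CPM in A0 and 123 CPM in B0. Pabpc2, a testis poly(A)-binding protein, was 1059 CPM in A0, 369 CPM in B0 and 1301 CPM in BA10. In BA10 over B0 over all cells 6 of 55 were higher and 23 lower (18.8% and 39.5% of all genes), with median -0.72 against -0.38. Among deep cells 0 of 47 were higher and 4 lower, where 15.2% of all genes were past 2-fold in either direction. In BA10 over A0 among deep cells 3 of 47 were higher and 9 lower (14.6% and 20.2% of all genes). The third CPEB gene, Cpeb3, was at 31.1 CPM in A0 and 1.37 CPM in BA10, a log2 ratio of -3.76, and Eif4g1, a scaffold of the cap-binding complex, was at 93.4 CPM in A0 and 10.1 CPM in BA10. In early SPC-like cells Cpeb3 was again lower, at 16.5 CPM in A0, 3.98 CPM in B0 and 0.616 CPM in BA10. The last 2 values rest on few UMIs, since 3 counts in these cells were 1.99 CPM in B0 and 0.369 CPM in BA10. Early SPC-like cells of A0 also held Prm1 at 7182 CPM, and the part of spermatid RNA in the Cpeb3 values was not tested.

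Transcripts that spermatids are known to store were a list of 13 genes. Of these, Prm1, Prm2, Prm3, Tnp1, Tnp2 and Odf1 were also markers used to name late ST-like cells. Such cells numbered 1974 in A0, 0 in B0 and 16 in BA10. Fewer spermatids and lower levels per spermatid cannot be told apart in the sums below. In B0 over A0 over all cells 13 of 13 were lower (22.7% of all genes were), with a median log2 ratio of -4.63 against 0.51 for all genes. Among deep cells 11 of 13 were lower, where 27.8% of all genes were past 2-fold in either direction. The median there was -2.99 against 0.25. In BA10 over B0 8 of 13 were higher over all cells, where 18.8% of all genes were. Among deep cells 3 were higher and 2 lower, where 15.2% of all genes were past 2-fold in either direction. In BA10 over A0 12 of 13 were lower (20.2% of all genes were), with a median of -3.59 against 0.34, while Ldhc, a lactate dehydrogenase made from the pachytene spermatocyte onward, was 7797 CPM in A0 and 8851 CPM in BA10. Prm1 was 12309 CPM in A0, 16635 CPM in A10, 34.99 CPM in B0 and 360 CPM in BA10. Of 3 transcripts known to be bound by DAZL, Sycp3, of the synaptonemal complex, was also a marker used to name early SPC-like cells. Within those cells it was 777 CPM in A0, 808 CPM in A10, 1918 CPM in B0 and 639 CPM in BA10. Ddx4 (349, 360, 387 and 264 CPM) and Tex19.1 (23.4, 24.2, 31.2 and 21.8 CPM) varied less. All 3 had 1 order of libraries, that of Dazl but for A0 and A10. For Tex19.1 the interval of B0 over A0 (-0.103 to 0.908) included 0.

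The genes whose levels over the 34 clusters, on a scale of log2 with 10 CPM added, were most like each member were named from 11603 genes. The clusters share libraries and depth, so Pearson's r describes likeness only. For Dazl they were Esco2, Caprin2 and Tex19.1 (r = 0.943, 0.942 and 0.942), and for Cpeb1 Srbd1, Actr3b and Surf6 (0.966, 0.952 and 0.952). For Boll they were Ddx4, Cenpu and Cox7b2 (0.983, 0.982 and 0.978), for Ddx25 Itgb3bp, Cenpn and Fam170a (0.993, 0.990 and 0.988), and for Pabpc1 Bbip1, Mrpl39 and Uchl3 (0.981, 0.978 and 0.976). Ybx2 was nearest to Yif1b, Pbx4 and Dis3l (0.980, 0.976 and 0.972), Ybx3 to Immp2l, 1700088E04Rik and B3gnt4 (0.978, 0.978 and 0.974), Ybx1 to Cript, Btf3 and Cops5 (0.955, 0.943 and 0.939), and Cpeb2 to Msl1, Synj2bp and Zfp821 (0.941, 0.938 and 0.928). Among the members themselves Boll and Pabpc1 had the highest r, at 0.964, followed by Boll and Ddx25 at 0.960. Dazl had r of 0.212 with Boll and 0.727 with Cpeb1, and Cpeb1 had r of -0.515 with Ybx2.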

How the data were processed

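Testis cells of 4 libraries were profiled by 10x Genomics 3' single-cell RNA sequencing. The authors counted UMIs with Cell Ranger 2.2.0 on mm10, per the labels, and normalized with Seurat, so a deposited value is a natural log: 10000 times the share of a cell's UMIs that a gene took, with 1 added before the log. These values were turned back into UMIs, 100% of them whole within 0.001. UMIs were summed per library or class and scaled to CPM, with exact Poisson 95% intervals. Log2 ratios had 1 CPM added, past 2-fold means an absolute log2 ratio of at least 1, and background counts used genes at 10 CPM or more in either library. Intervals of ratios are exact conditional binomial ones with nothing added. Shares of cells have exact binomial intervals, and at 0 counts a limit of 3 counts applies.

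Clusters came from 2000 variable genes without the 9 members, 30 principal components, 15 neighbours and Leiden resolution 1 (scanpy 1.11.5, leidenalg 0.10.2). A cluster took the class whose markers scored highest, as the mean of each marker's level relative to its highest cluster, and stayed unnamed where another class led its 10 leading genes, where under 3 of its markers were found in 10% of cells, or where its UMIs were low and no marker led. A rule added after the data were seen left 2 germ clusters with stromal or Leydig genes in the lead unnamed. Doublets were kept. Scrublet marked 8.06, 8.66, 0.0859 and 1.27% of A0, A10, B0 and BA10 cells, and the low share in B0 was not examined further. The calculation was tested on simulated data. Coordinates are from GENCODE on mm10. The named genes were the 9 members, the 3 genes nearest to each, and at most 3 rises and 3 falls per list. Members and lists were chosen with earlier results of these data known, and the early SPC-like comparison and the ratios with nothing added were added after seeing the data.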

Additional observations from a re-analysis of the deposited data

Results flagged for a closer look

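Listed here are results over all cells and deep cells, and those inside cell classes are not counted. In 5 of them the log2 ratios of AOS without busulfan (A10 over A0) and with it (BA10 over B0) had opposite signs. Their counting intervals excluded 0. With 1 library in each group the difference was not tested. Over all cells Pabpc1 was at -0.08 without busulfan and 1.59 with it, a difference of 1.67, and Cpeb2 at -0.22 and 0.72, a difference of 0.94. Somatic cells were 77.8% of B0 and 3.15% of BA10 in that setting. Among deep cells Pabpc1 was at -0.06 and 0.34, a difference of 0.39, Boll at 0.11 and -0.26, a difference of -0.36, and Ybx1 at 0.03 and -0.04, a difference of -0.07. Centred on the median of all genes, the Ybx1 ratio of BA10 over B0 was 0.06. For Cpeb2 the deep-cell ratios were both negative, at -0.20 and -0.29.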

How the results depend on the processing

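No paired analysis was possible because each group is 1 library, and no library could be left out. Of 125 recomputed counts, of members past 2-fold or of class patterns, 109 stayed within 1.5 times the value reported. With ratios centred on the median of all genes, the count for BA10 over A0 was 0 over all cells and 0 over deep cells, and that for BA10 over B0 over deep cells was 1, Ybx2. With the mean over cells in place of the sum, BA10 over A0 gave 2. With nothing added, which raises the ratio of Cpeb1, counts were 2 for BA10 over A0 over all cells and 2 over deep cells, 1 for B0 over A0 over deep cells, 1 for A10 over A0 and 1 for BA10 over A0 in late SPC-like cells, and 1 for B0 over A0 and 1 for BA10 over A0 in ST-like cells. With 10 CPM added, B0 over A0 in early SPC-like cells gave 1. BA10 over A0 in ST-like cells gave 1 with 1000 variable genes, with resolution 2 and without Scrublet calls, and in late SPC-like cells 2 at resolution 0.5, and the cause was not tested. Without a filter on low levels 51.3% of genes were past 2-fold in B0 over A0, and 22.3% in BA10 over A0. Of 1017 single ratios, 751 lay within the counting interval of that gene and comparison and the rest outside it, and 22 with a counting interval clear of 0 changed sign, among them Dazl and Boll in BA10 over A0 over all cells once centred (-0.03 and -0.03), and none of these 22 was past 2-fold as reported. Depth limits Cpeb1 most: 0.404 CPM in A0 was 61 UMIs.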
